A study of Drosophila melanogaster with 6 samples.

Results

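The comparison described here sets cbc knockdown testes against driver-only control testes of Drosophila melanogaster, with 2 libraries in each group out of 6 in the series. The knockdown libraries carry the bamGal4 driver and the hairpin line BL 77426 against crowded by cid (cbc). The control libraries carry bamGal4 alone, so the driver is shared by both groups and no control carries an unrelated hairpin. The driver follows the bag of marbles gene and acts in late spermatogonia and early spermatocytes, and hub, cyst and muscle cells of the same organ are not its target. Each library came from 150 pairs of testes, dissected in batches of 50 pairs. Crosses stayed at 25 °C for 3 days before the progeny were moved to 29 °C, and the age of the flies at dissection was not given in the sources used here. All genes with at least 10 reads in at least 2 of the 4 libraries were members, which left 13845 of 17807 gene identifiers. Whether the 2 libraries of a group are separate cultures is not in the labels. The p-values therefore reflect spread between libraries, and this spread may be technical.

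The protein encoded by cbc is the fly homologue of Clp1, which forms cleavage factor II together with Pcf11. Cleavage factor II acts at the end of genes, where the nascent transcript is cut and given a poly(A) tail before RNA polymerase II lets go of the template. When cleavage or termination fails, polymerase can continue into the DNA beyond the gene. In the testis, spermatocytes transcribe most of the RNA that spermatids later use to build the sperm tail, pack the nucleus and reshape the mitochondria. Such RNAs are often stored for days before translation.

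The libraries were poly(A)-selected, directional and of unequal depth. Reads assigned to the sense strand of genes numbered 18954932 and 20510200 in cbc knockdown, against 76132580 and 73600622 in control. Among uniquely mapped reads, 2.62% and 2.86% in cbc knockdown fell in no gene, against 1.36% and 1.35% in control. Depth and the style of the sample titles both go with the genotype, so a preparation batch and the knockdown cannot be told apart. Levels are given in CPM, the reads of a gene per 1000000 reads after scaling by the trimmed mean of M values (TMM). A gene was called at an adjusted p under 0.05 in edgeR's quasi-likelihood test with Benjamini-Hochberg adjustment over all 13845 genes, and every adjusted p below is from that test. In whole-organ RNA, fewer cells of a type and less RNA per cell cannot be told apart.

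The targeted gene was lost from the knockdown libraries. cbc stood at 4.29 and 3.39 CPM in cbc knockdown, against 55.4 and 60.0 CPM in control, and the groups did not overlap. The log2 fold change was -3.91 ± 0.13 (SE, n = 2 libraries each, adjusted p = 7.2e-10). Its partner Pcf11, which bridges cleavage factor II and the tail of RNA polymerase II, went the other way. Pcf11 stood at 108 and 104 CPM in cbc knockdown, against 52.7 and 57.7 CPM in control, a log2 fold change of 0.94 ± 0.08 (adjusted p = 1.2e-06).

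Most of the transcriptome differed between the groups. The test called 10300 genes (74.4%), of which 5059 (36.5% of those tested) were higher and 5241 (37.9%) lower in cbc knockdown. At least 2-fold rises numbered 2618 (18.9%) and at least 2-fold falls 2256 (16.3%). Rises of 16-fold or more numbered 264 and falls of that size 110. For 12169 genes (87.9%) both cbc libraries lay beyond both controls. With library totals in place of TMM, all values moved up by 0.24 on the log2 scale and the split became 6307 higher and 3948 lower, or 61.5% higher among called genes in place of 49.1%. Counts below are relative to that choice of scale.

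The low-count rule treats rises and falls differently, because the cbc libraries are shallower. A total of 452 genes reached the count minimum only with the cbc libraries, and 421 of them were called higher, an outcome that this rule strongly favours. The counts over lists and positions below therefore use the 13393 genes that reached the minimum in both controls. Of these, 34.6% were higher and 39.1% lower in cbc knockdown, with a median log2 fold change of -0.06. A further 928 of the 13393 missed the minimum in at least 1 cbc library, and 379 of them were called lower.

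**Figure D1:**
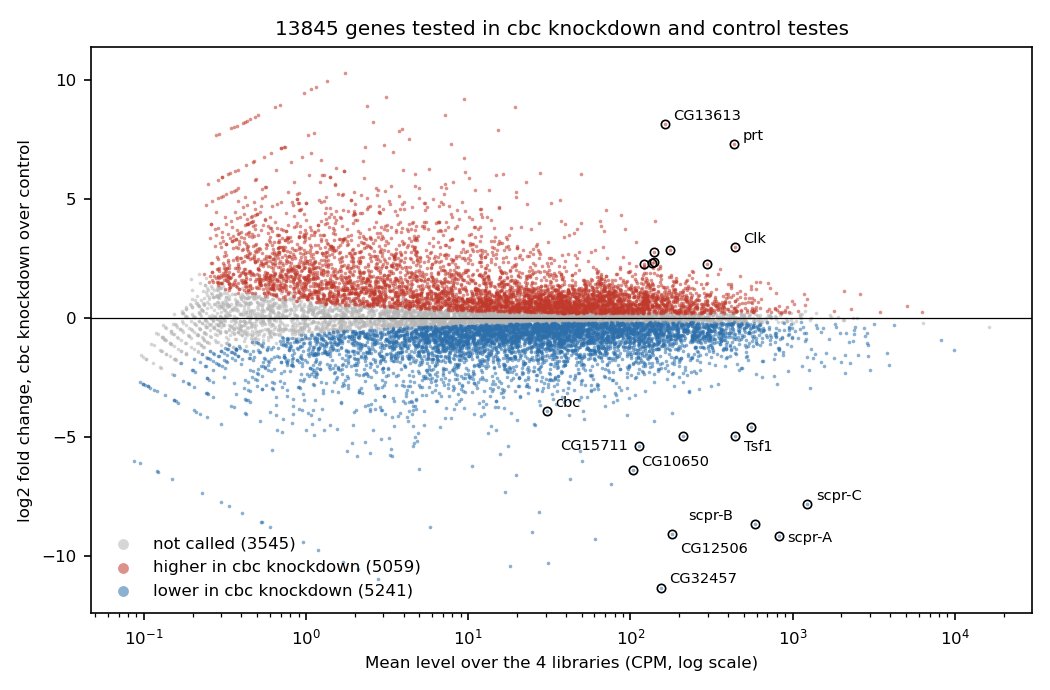
Each point is 1 of 13845 genes, with the mean level over the 4 libraries in CPM on a log axis and the log2 fold change of cbc knockdown over control on the vertical axis. Red points (5059) were higher and blue points (5241) lower in cbc knockdown, and open circles mark cbc and the abundant protein-coding genes named in the text for their large rises and falls.

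Among protein-coding genes with a mean of at least 100 CPM, the greatest rises reached genes that were nearly silent in control testes. CG13613, at chr3R:24365554-24366349 in BDGP6, stood at 322 and 330 CPM in cbc knockdown, against 1.27 and 1.01 CPM in control, a log2 fold change of 8.16 ± 0.12 (adjusted p = 8.3e-12). prt (portabella), at chr3R:23696372-23699027, encodes a vesicular transporter known from neurons and stood at 820 and 917 CPM in cbc knockdown, against 5.83 and 5.22 CPM in control. Its log2 fold change was 7.30 ± 0.12 (adjusted p = 1.1e-11), and for both genes the groups stood far apart.

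The other abundant rises started from genes that control testes already transcribe. Clk, the circadian transcription factor Clock, stood at 750 and 820 CPM in cbc knockdown, against 104 and 93.7 CPM in control (log2 fold change 2.99 ± 0.09). Tpl94D encodes a transition protein that sits on spermatid DNA while histones are exchanged for protamines. It stood at 238 and 248 CPM in cbc knockdown, against 36.0 and 35.6 CPM in control (2.76 ± 0.08). Spn, the phosphatase scaffold Spinophilin, rose by 2.86, CG11322 by 2.34, scra, the cytokinesis protein anillin, by 2.30, Elys, a nuclear pore protein, by 2.28 and Ank2, an ankyrin, by 2.25 on the log2 scale. None of the 4 values of any of these genes crossed between the groups. This was a condition for naming them, and 87.9% of all genes tested meet it.

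The greatest falls left almost no RNA of genes that are among the more abundant of the control testis. CG32457, at chr3L:22987642-22988262, stood at 0.0482 and 0.181 CPM in cbc knockdown, against 333 and 287 CPM in control, a log2 fold change of -11.34 ± 0.21 (adjusted p = 2.4e-11). The knockdown values rest on 5 reads in all. CG12506 stood at 0.723 and 0.588 CPM in cbc knockdown, against 353 and 366 CPM in control (-9.10 ± 0.14). The neighbouring genes scpr-A, scpr-B and scpr-C, which encode secreted proteins of the cysteine-rich SCP family, fell by 9.18, 8.67 and 7.81 on the log2 scale. scpr-C alone accounted for 2542 and 2380 CPM in control and for 12.5 and 9.40 CPM in cbc knockdown. Near-identical stretches of the scpr genes could share reads, so the division among them is uncertain.

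Falls of CG10650 (-6.40), CG15711 (-5.38), CG12111 (-4.96) and CG6628 (-4.60) completed the group together with Tsf1. Tsf1 encodes the iron carrier transferrin and stood at 30.3 and 24.9 CPM in cbc knockdown, against 809 and 913 CPM in control (-4.97 ± 0.12, adjusted p = 1.0e-10). In these genes too the groups did not overlap, as the rule for naming them required.

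**Figure D2:**
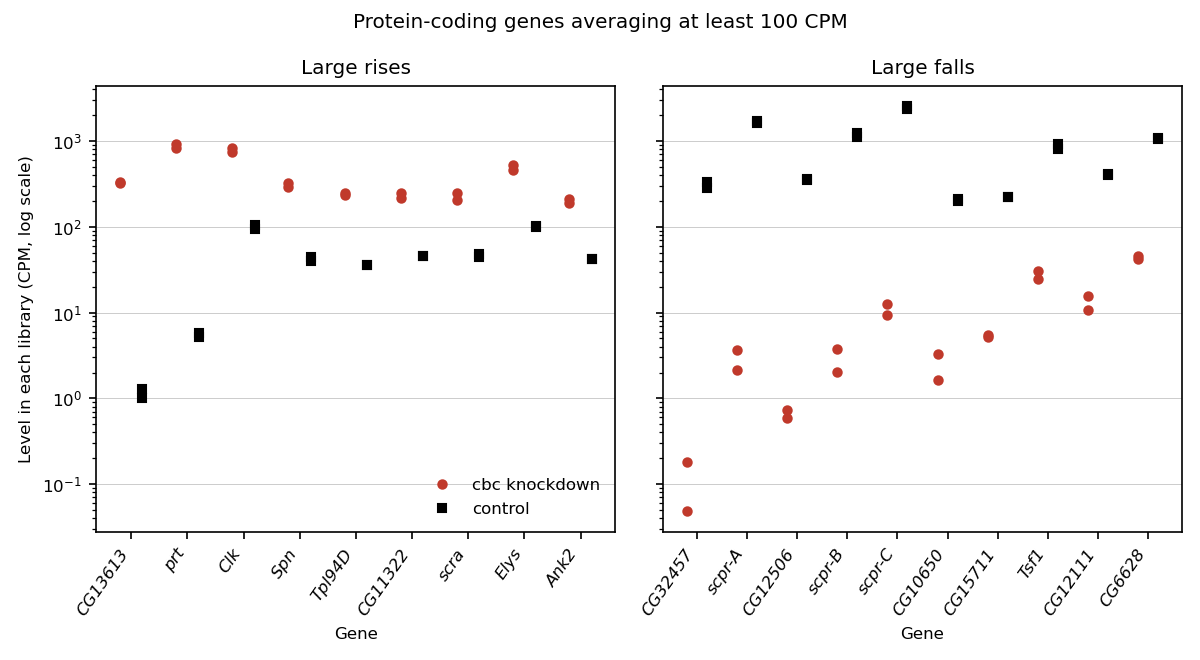
Levels in each library, in CPM on a log axis, of the protein-coding genes named for the largest rises and falls among those averaging at least 100 CPM. Red circles are the 2 cbc knockdown libraries and black squares the 2 controls. In every gene plotted the groups are separate, as the rule for naming them required.

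Measured as RNA mass, the losses sat in very abundant genes. CG18628 stood at 6865 and 4439 CPM in cbc knockdown, against 13103 and 15372 CPM in control, and its log2 fold change was -1.33 ± 0.17. CG10252, which begins 126 bases downstream of prt on the same strand, stood at 1658 and 1538 CPM in cbc knockdown, against 6472 and 6099 CPM in control (-1.98 ± 0.09). Jhbp5, a juvenile hormone binding protein gene, stood at 1237 and 920 CPM in cbc knockdown, against 4988 and 4797 CPM in control (-2.18 ± 0.13). CG4836 (-0.92) and CG31740 (-1.49) were the others among the 5 largest losses. The 100 most abundant genes of each library held 19.3% and 19.3% of reads in cbc knockdown, against 24.7% and 22.9% in control.

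The largest gains in mass included 3 genes of the mitochondrial genome, with a caveat in the controls. mt:CoIII, a cytochrome oxidase subunit, stood at 3476 and 3470 CPM in cbc knockdown, against 2160 and 1277 CPM in control (1.01 ± 0.18, adjusted p = 0.00036). mt:Cyt-b (1.12) and mt:CoI (0.51) shared that spread between the controls. Mitochondrial-genome reads as a whole made up 3.12% and 3.54% of reads in cbc knockdown, against 3.46% and 1.79% in control. S-Lap1, a leucyl aminopeptidase of the sperm, gained 0.26 on the log2 scale, and prt was the fifth of these gains. The call of mt:CoI was lost with DESeq2 and without cbc knockdown library 2, and that of S-Lap1 without either cbc knockdown library.

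Most listed genes of the sperm tail and sperm chromatin were lower in cbc knockdown, while most of those of the meiotic divisions and of the centriole were higher. Beside these and the list counts below, 34.6% of all 13393 genes were higher and 39.1% lower. All 7 Mst genes of the sperm tail were lower in cbc knockdown, and no Mst gene was higher. Mst84Dc stood at 58.8 and 59.4 CPM in cbc knockdown, against 485 and 464 CPM in control (-3.01 ± 0.08, adjusted p = 2.6e-10). Mst84Dd fell by 2.44, Mst84Db by 1.90 and Mst87F by 1.85 on the log2 scale. The summed level of the 7 genes was 4270 and 4088 CPM in cbc knockdown, against 12940 and 11705 CPM in control.

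Of 9 sperm chromatin genes, 8 were lower and 1 was higher, or 5 lower and 1 higher with library totals. The protamine genes ProtA and ProtB, whose products pack the DNA of the mature sperm head, fell by 1.54 and 1.13 on the log2 scale. CG30056 fell by 2.28 and the HMG-box gene tHMG2 by 1.29, while Tpl94D, described above, was the rise. Among 23 other spermatid genes, 17 were lower and 4 higher. The sperm tail gene dj (don juan) stood at 478 and 472 CPM in cbc knockdown, against 1379 and 922 CPM in control (-1.28 ± 0.15), and sowi (-1.97) and boly (-1.91), genes transcribed after meiosis, fell further. The list also held comr, which is no spermatid gene but a partner of the meiotic arrest complex. Individualization, the step that separates the sperm of a cyst, gave 6 lower and 3 higher of 17 genes, or 6 lower and 7 higher with library totals. klhl10, part of a ubiquitin ligase that acts in this step, stood at 40.5 and 42.6 CPM in cbc knockdown, against 130 and 106 CPM in control (-1.50 ± 0.10), and the caspase gene Dronc rose by 0.79. The share of individualization genes called lower is near the 39.1% of all 13393 genes.

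Testis-specific copies of housekeeping genes were mixed in direction but led several lists. The dynein light chain genes robl22E and robl37BC fell by 3.55 and 3.46 on the log2 scale, and robl22E stood at 13.0 and 11.5 CPM in cbc knockdown, against 142 and 145 CPM in control. Of 16 axonemal dynein genes 9 were lower and 6 higher, or 7 each way with library totals. Among 13 translation factor paralogs, 7 were lower and 4 higher, and this list also held general factors such as eIF4A and eIF4E1. The cap-binding protein gene eIF4E3 stood at 251 and 233 CPM in cbc knockdown, against 826 and 826 CPM in control (-1.77 ± 0.08), while eIF4E7 rose by 0.81. Among 13 testis paralogs of the proteasome, 7 were lower, led by Prosbeta4R2 (-1.56), and 3 higher, led by Prosalpha4T1 (0.88). In the proteasome core list 8 of 13 were lower, led by Prosbeta1 (-2.07), and 2 were higher. With library totals in place of TMM both proteasome lists lost their lean, at 4 higher against 4 lower for the testis paralogs and 4 higher against 3 lower for the core. Without cbc knockdown library 2, 5 of the core genes were lower in place of 8.

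Among nuclear genes for mitochondrial proteins, more were lower than higher in the respiratory and ribosomal lists. Of 87 genes for the respiratory chain and ATP synthase, 58 were lower and 7 higher, or 42 lower and 21 higher with library totals. The largest falls were in testis-specific copies: COX6AL stood at 22.1 and 20.4 CPM in cbc knockdown, against 141 and 141 CPM in control (-2.73 ± 0.09), and UQCR-11L (-2.48), UQCR-14L (-2.18), SdhAL (-1.91) and ND-24L (-1.90) followed, with the assembly factor gene Sdhaf3 at -2.38. Among 71 mitochondrial ribosomal protein genes 42 were lower and 14 higher, led by mRpL2 (-2.08), or 33 lower and 19 higher with library totals. The list for the fused mitochondria of the spermatid tail gave 8 lower and 3 higher of 14, or 4 each way with library totals. The rises there were fzo, the fusion GTPase (1.19), knon, a paralog of an ATP synthase subunit (1.34), and milt (0.60), and Pink1 fell by 0.93. That list also held the peroxisomal gene Mfe2.

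Cytoplasmic ribosomal protein genes gave 57 lower and 3 higher of 91, with a median of -0.33. With library totals in place of TMM, 31 were lower and 16 higher. RpS28-like (-2.79) and RpS28a (-2.40) fell most, and RpL15 stood at 139 and 110 CPM in cbc knockdown, against 274 and 241 CPM in control (-1.05 ± 0.11).

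The meiotic division list gave 10 higher and 1 lower of 13. Mos, a kinase known from frog and mouse oocytes as a driver of the MAP kinase pathway in meiosis, stood at 20.1 and 23.0 CPM in cbc knockdown, against 0.439 and 0.604 CPM in control (5.36 ± 0.18, adjusted p = 8.1e-10). Mos begins 89 bases downstream of Taz on the same strand. twe, the Cdc25 phosphatase of male meiosis, stood at 272 and 320 CPM in cbc knockdown, against 112 and 110 CPM in control (1.42 ± 0.09). The mitotic kinase gene polo (1.01) and the cyclin gene CycB (0.96) rose, and Cdk1, the kinase that cyclin B activates, fell by 0.77.

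Of 13 genes in the centriole and basal body list, 12 were higher and none lower under the 3 scalings. ana1, which links the inner and outer centriole, stood at 213 and 278 CPM in cbc knockdown, against 59.1 and 56.9 CPM in control (2.08 ± 0.12). ana2 (1.96) and Sas-6 (1.04), both parts of the centriole cartwheel, and the basal body gene unc (1.86) also rose. The list also held cid (1.20), the centromere histone, which is no centriole gene.

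The list of tMAC, the meiotic arrest complex, and its partners gave 7 lower and none higher of 13, led by tbrd-3 (-2.76) and aly (-1.35). With library totals, 6 were lower and 2 higher. The testis TAFs, variant subunits of TFIID, were split, with sa lower (-1.25), nht lower (-0.25), mia higher (0.53) and can higher (0.21). The calls of nht and can were lost with DESeq2, that of nht also with library totals, and both when cbc knockdown library 2, control library 1 or control library 2 was left out. Spermatogonial genes were split 4 higher and 4 lower of 11 (2 lower with library totals or without control library 2), with mei-P26 higher (1.25) and aub lower (-1.55). That split is near the 34.6% higher and 39.1% lower of all 13393 genes. bam itself, whose promoter drives the Gal4, was not called, at 7.08 and 7.60 CPM in cbc knockdown, against 7.09 and 9.08 CPM in control.

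**Figure D3:**
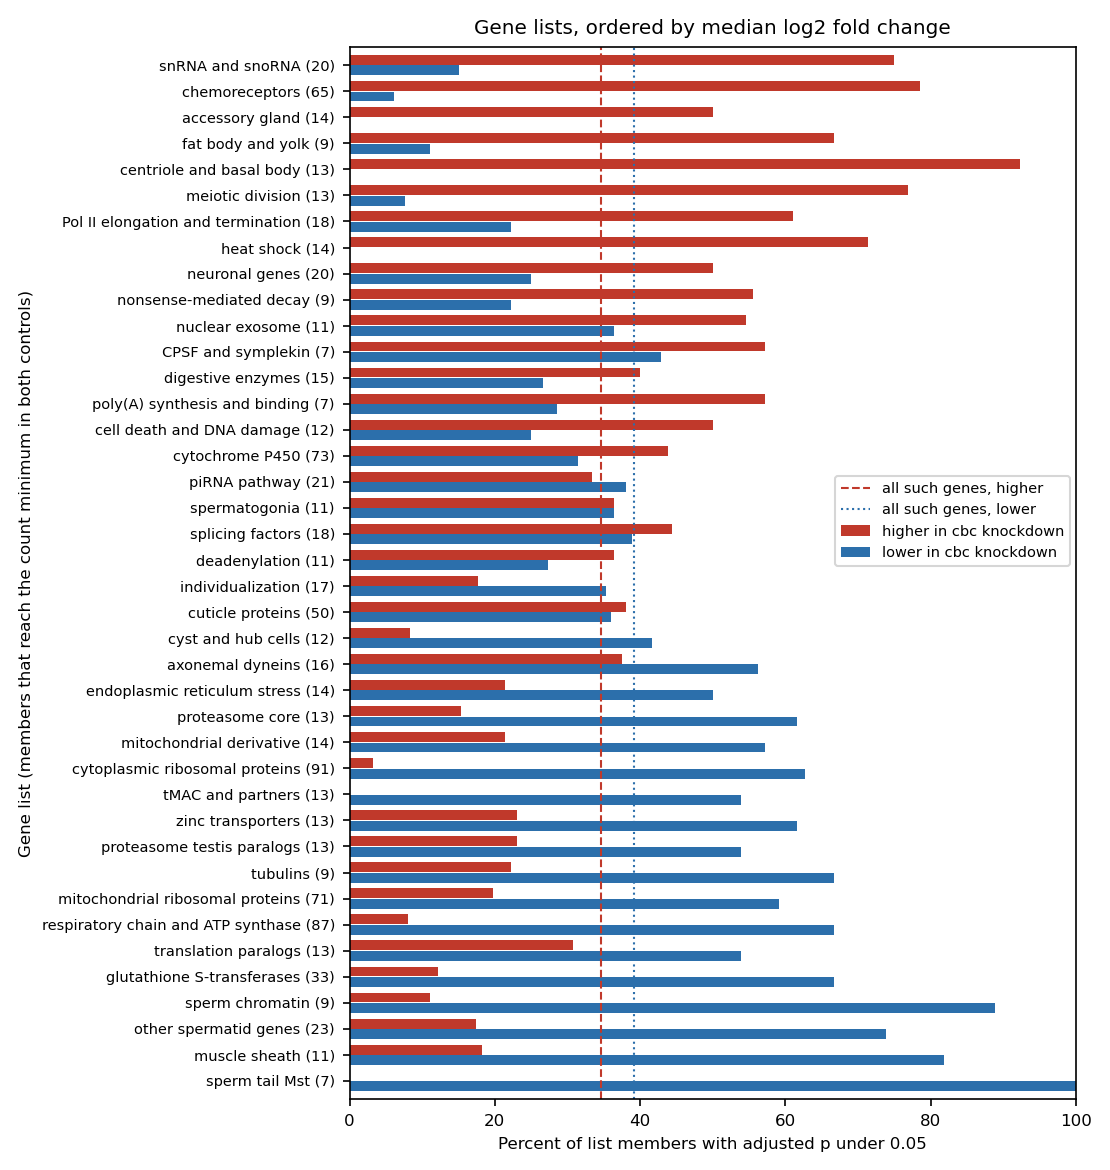
For each list with at least 7 genes that reached the count minimum in both controls, red bars give the percent of those genes higher and blue bars the percent lower in cbc knockdown. The dashed and dotted lines mark the 34.6% higher and 39.1% lower of all 13393 such genes, and sperm tail, muscle and spermatid lists lie at the low end while chemoreceptor, centriole and meiotic lists lie at the high end.

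The other genes of 3' end formation changed in both directions. In the CPSF list, the complex that reads the poly(A) signal and cuts the RNA, 4 of 7 were higher and 3 lower. Wdr33, which contacts the AAUAAA signal, stood at 185 and 192 CPM in cbc knockdown, against 68.1 and 71.1 CPM in control (1.44 ± 0.08). The scaffold gene Cpsf160 rose by 1.39, and the endonuclease gene Cpsf73 (-0.33) and its partner Cpsf100 (-0.53) fell. With library totals none of the 7 was lower. In CstF, which binds downstream of the cut, CstF64 (0.60) and su(f) (0.50) rose, and CstF50 was not called at -0.05. Cpsf6 of cleavage factor I was not called at 0.04, but with library totals it was called higher at 0.28 (adjusted p = 0.015). Among poly(A) synthesis and binding genes 4 of 7 were higher and 2 lower, led by Ssu72 (-0.98), the phosphatase of the polymerase tail.

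Elongation and termination factors gave 11 higher and 4 lower of 18, and 2 lower with library totals or when cbc knockdown library 2 or control library 2 was left out. Rtf1 stood at 268 and 301 CPM in cbc knockdown, against 97.8 and 103 CPM in control (1.50 ± 0.09, adjusted p = 3.5e-08). atms, the fly Paf1, rose by 1.15, and the pausing factor gene Nelf-E (1.08) and the kinase genes CycT (1.06) and Cdk12 (1.05) rose about as much. Spt6, a histone chaperone that travels with polymerase, fell by 1.03. For RNA decay, 6 of 11 exosome genes were higher and 4 lower, 5 of 9 nonsense-mediated decay genes were higher and 2 lower, and 4 of 11 deadenylation genes were higher and 3 lower (2 higher without control library 2). Not11 of the CCR4-NOT complex fell by 2.55 and its catalytic partner Pop2 by 1.29. Splicing factors were split, 8 higher and 7 lower of 18, with SC35 at -1.65 (8 higher and 3 lower with library totals). The deadenylation and splicing counts are not far from the shares of all 13393 genes, 34.6% higher and 39.1% lower.

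Genes lying just downstream of an abundant gene rose more than others. Among the 1830 genes under 1 CPM in control that reached the count minimum there, 49.2% were higher in cbc knockdown and 9.02% lower. These genes were chosen as low in the controls, so their values describe them and carry no test. Of the 93 that begin up to 1000 bases beyond the end of a same-strand gene of at least 50 CPM, 73 (78.5%) were higher and 3 lower. Low genes that overlap such an upstream gene are not among the 93, and 5 of those 21 (23.8%) were higher, so that with them it was 78 of 114 (68.4%). The median log2 fold change of the 93 was 2.08, against 0.88 for all 1830.

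The rise followed the level of the upstream gene and the distance to it. Behind an upstream gene under 50 CPM at the same distance, 211 of 414 genes (51.0%) were higher, with a median of 0.96. Split further, the median was 0.90 behind genes under 10 CPM, 1.16 behind genes of 10 to 50 CPM, 1.97 behind genes of 50 to 200 CPM and 2.81 behind the 20 genes of at least 200 CPM in this position. For upstream genes of at least 50 CPM, it was 2.41 up to 250 bases away, 1.84 from 250 to 1000 bases, 0.93 from 1000 to 5000 bases and 0.80 farther off. The share called higher ran 83.7%, 74.0%, 50.9% and 48.4% over the same 4 classes.

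Other positions next to an abundant gene gave lower medians. Low genes that lie head to head with a gene of at least 50 CPM on the other strand, up to 1000 bases apart, gave a median of 0.64 and 44.9% higher (78 genes). Low genes that lie just upstream of such a gene on the same strand gave 0.85 and 49.5% higher (95 genes). Genes behind an abundant gene were left out of both of these classes. Seen from the other side, 28 of the 93 genes that rose 16-fold or more and reached the minimum in both controls lay up to 1000 bases behind a gene of at least 50 CPM (30.1%). At a threshold of 4-fold, 105 of the 749 rises (14.0%) and 57 of the 717 falls (7.95%) lay there, beside 1011 of all 13393 such genes (7.55%).

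**Figure D4:**
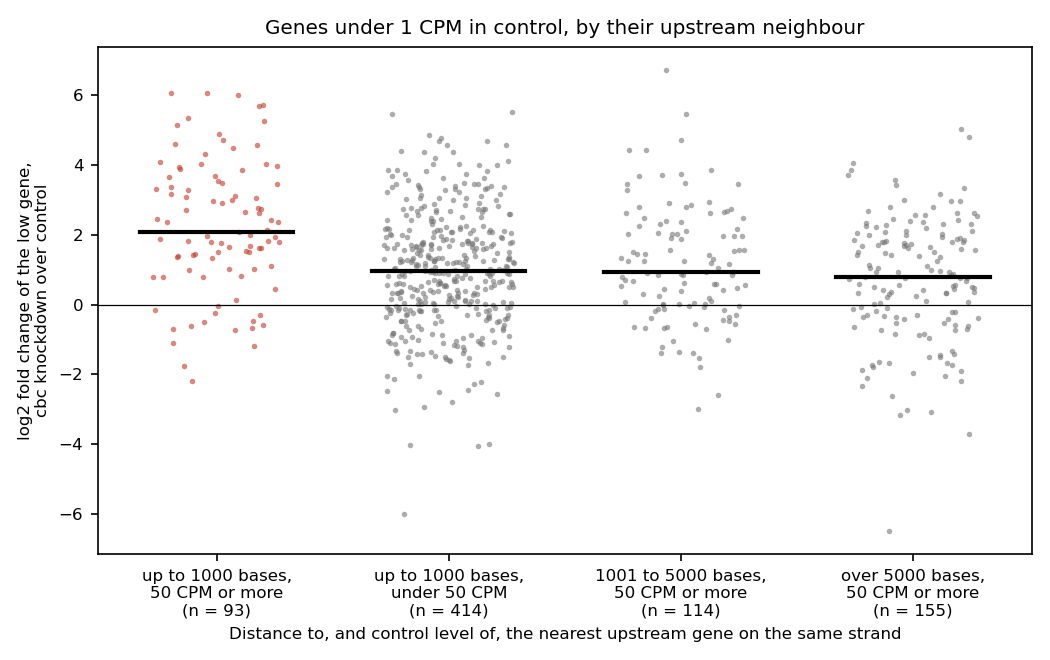
Each point is 1 gene under 1 CPM in control, with its log2 fold change of cbc knockdown over control on the vertical axis. The classes give the distance to, and the control level in CPM of, the nearest upstream gene on the same strand, and black lines mark medians of 2.08, 0.96, 0.93 and 0.80 from left to right.

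Single genes in this position were close to silent in control and clearly expressed in cbc knockdown. Zip89B, a zinc transporter gene at chr3R:16305758-16308700 in BDGP6, begins 989 bases beyond gish, a casein kinase gene of 707 CPM in control. It stood at 53.8 and 56.2 CPM in cbc knockdown, against 0.791 and 0.835 CPM in control (6.08 ± 0.13, adjusted p = 4.8e-11). Zip89B led the zinc transporter list, in which 8 of 13 genes were lower and 3 higher (5 lower and 4 higher with library totals), and gish itself was at -0.47. CG10587, at chr3L:20961537-20962555 and 99 bases beyond CG12983, stood at 30.2 and 34.7 CPM in cbc knockdown, against 0.454 and 0.518 CPM in control (6.05 ± 0.16).

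Some noncoding and regulatory genes in this position were also higher in cbc knockdown. Of those named here, lncRNA:CR45633 and lncRNA:CR45188 did not reach the count minimum in both controls. They passed the filter only because they are high in the cbc libraries, so their rise is no further evidence. They are not among the low genes counted above. lncRNA:CR45633 begins 65 bases beyond CG31226, a gene of 3802 CPM in control. It stood at 14.7 and 16.5 CPM in cbc knockdown, against 0.0732 and 0.115 CPM in control (7.33 ± 0.23), while CG31226 itself was at -1.58. HLH3B, a basic helix-loop-helix factor gene 263 bases beyond CG2652, stood at 14.8 and 17.0 CPM in cbc knockdown, against 0.234 and 0.360 CPM in control (5.73 ± 0.21). link, 342 bases beyond Roe1, stood at 29.1 and 29.8 CPM in cbc knockdown, against 0.366 and 0.547 CPM in control. lncRNA:CR45188, 501 bases beyond Cdep, had 321 reads in cbc knockdown and 4 in control. Scaled by library size that is a ratio of 258, with an exact 95% interval of 99.7 to 952 that covers counting error only. Whether the reads of such genes belong to transcripts of the gene upstream was not tested.

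Reads on the strand opposite to annotated genes also rose more often than they fell. Of 8119 genes with enough opposite-strand reads, 4583 were called (56.4%), 3142 higher (38.7%) and 1441 lower (17.7%). Opposite-strand reads made up 3.52% and 3.63% of stranded reads in cbc knockdown, against 3.10% and 3.08% in control. Of the 7310 that reached the minimum in both controls, 32.6% were higher and 19.7% lower, with a median of 0.22. Where the gene facing the 3' end on the other strand had at least 50 CPM and ended up to 1000 bases away, 42.4% were higher and 16.6% lower, with a median of 0.49 (535 genes). Where that gene had under 50 CPM the median was 0.30 (1061 genes), and where it lay over 5000 bases off the medians were 0.10 at 50 CPM or more and 0.03 below. Overlapping facing genes did not give the largest rises. At 50 CPM or more their class had a median of 0.19, with 39.2% higher and 23.4% lower (888 genes). Below 50 CPM the overlapping class had a median of 0.24 (2131 genes).

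Some opposite-strand signals were large, but of the rises named here only that of Spn100A reached the count minimum in both controls. The others passed the filter only because they are high in the cbc libraries. Opposite to Spn100A, a serpin gene, reads stood at 59.7 and 55.5 CPM in cbc knockdown, against 0.234 and 0.158 CPM in control, a log2 fold change of 8.18 ± 0.18. The sense reads of Spn100A averaged 0.187 CPM in cbc knockdown and 0.363 CPM in control, and the facing gene CG12069 ends 803 bases away. Opposite to Tsp66E, a tetraspanin gene whose end lies 169 bases from that of CG43783, reads stood at 12.4 and 13.6 CPM in cbc knockdown, against 0.0293 and 0.0432 CPM in control. Opposite to Adgf-C, an adenosine deaminase-related gene, the log2 fold change was 7.56 ± 0.22. Opposite to tos, an exonuclease gene, 323 reads in cbc knockdown stood against 3 in control, a scaled ratio of 346 with an exact 95% interval of 117 to 1686. Opposite to Ir7d, which faces Ir7c, it was 231 reads against 2, a ratio of 371 with an interval of 102 to 3083.

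Opposite-strand falls traced named transcripts in at least 1 case. Reads opposite to CG31388 stood at 0.771 and 0.452 CPM in cbc knockdown, against 298 and 303 CPM in control (-8.94 ± 0.16), and CG31388 overlaps scpr-B on the other strand, which fell by 8.67. Reads opposite to Rbp6 (-5.73), CG14420 (-5.53), CG18596 (-4.88) and Ptx1 (-4.22) also fell.

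Small nuclear RNAs, which carry no poly(A) tail when mature, were higher in the poly(A)-selected cbc libraries. Those made by RNA polymerase II are cut at their 3' end by the Integrator complex, whereas 7SK is made by RNA polymerase III. All 15 snRNA genes tested of 31 annotated were higher, and 13 of them reached the minimum in both controls. Their summed level was 123 and 112 CPM in cbc knockdown, against 11.3 and 12.7 CPM in control. snRNA:U11 of the minor spliceosome stood at 20.1 and 20.3 CPM in cbc knockdown, against 1.38 and 1.50 CPM in control (3.81 ± 0.14, adjusted p = 1.6e-09). snRNA:U2:38ABa stood at 28.1 and 25.7 CPM in cbc knockdown, against 1.95 and 1.91 CPM in control (3.80 ± 0.13).

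The log2 fold changes of all 15 snRNA genes tested ran between 1.73 and 4.84, with a median of 3.67. snRNA:U1:95Cc (4.84), snRNA:U4:39B (4.55) and snRNA:U12 (3.67) were among the larger, and snRNA:7SKa, which holds the CycT kinase inactive, was at 1.73. Many snRNA genes occur in near-identical copies, and only uniquely mapped reads were counted, so the division among copies is uncertain. snoRNA genes, most of which lie in introns, were split among the 10 tested of 269 annotated, with 4 higher and 3 lower. Of the 10, 7 reached the minimum in both controls. snoRNA:Me18S-C1968 and snoRNA:185, both among the 4 higher, did not and passed the filter only with the cbc libraries. snoRNA:U3:54Ab stood at 2.51 and 2.53 CPM in cbc knockdown, against 23.8 and 25.5 CPM in control (-3.29 ± 0.14). The U3 genes snoRNA:U3:54Aa (0.93) and snoRNA:U3:9B (0.90) were called higher, so that fall does not hold for the U3 genes as a set. The share of RNA without a tail that passed poly(A) selection was not measured, and its part in these values was not tested.

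Most chemoreceptor genes that could be tested rose. Of 185 annotated genes for odorant, gustatory and ionotropic receptors, 97 were tested and 65 reached the minimum in both controls. Of those 65, 51 were higher and 4 lower, with a median of 1.81, beside 34.6% higher among all 13393 genes that reached it. Among genes under 1 CPM in control that reached it, 49.2% were higher. Not all of the 65 were that low, as Gr64f stood at 16.4 and 15.5 CPM in control. The summed level of all members of these receptor families was 352 and 404 CPM in cbc knockdown, against 107 and 106 CPM in control. Or46a stood at 12.2 and 14.3 CPM in cbc knockdown, against 0.322 and 0.259 CPM in control (5.50 ± 0.20). Gr66a rose by 5.14. Ir56d (6.26) and Ir51a (6.03) rose more, but each missed the count minimum in a control and is not among the 65. Both passed the filter only with the cbc libraries, where they are high.

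Gr59d had no read in either control, against 3.47 and 3.53 CPM in cbc knockdown, and its fitted fold change depends on the prior count. It too passed the filter only with the cbc libraries. Cytochrome P450 genes gave 32 higher and 23 lower of the 73 that reached the minimum in both controls. Those counts include the cyclophilin genes Cyp40 (0.97, higher) and Cyp1 (-0.42, lower), which are no P450 genes. Cyp6a2, a detoxification enzyme gene, stood at 37.6 and 38.9 CPM in cbc knockdown, against 1.13 and 1.14 CPM in control (5.07 ± 0.13), and Cyp4ae1 fell by 4.85. Cuticle protein genes were split 19 higher and 18 lower of 50, and that list also held Cpr (0.23, higher), the P450 reductase gene. Glutathione S-transferase genes were mostly lower, with 22 lower and 4 higher of 33, GstD3 at -3.01 and GstD9 at -2.11, although GstE10 rose by 4.02.

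Hsp70 genes rose, other heat shock genes rose less or were not called, and other stress lists were mixed. Of 14 heat shock genes 10 were higher and none lower (13 higher with library totals). Beside the Hsp70 genes, the rises were Hsf (0.65), stv (0.50), Hsp26 (0.38) and Hsp27 (0.37). Hsp68 (0.03), Hsp23 (0.004), DnaJ-1 (-0.05) and Hsp83 (-0.07) were not called. The 6 Hsp70 genes rose by between 2.27 and 2.86 on the log2 scale, and Hsp70Aa stood at 125 and 88.4 CPM in cbc knockdown, against 12.6 and 16.9 CPM in control. The Hsp70 copies are near-identical and their division is uncertain. Endoplasmic reticulum stress genes gave 7 lower and 3 higher of 14, or 6 lower and 5 higher with library totals, with the translation inhibitor gene Thor at -1.43. Among cell death and DNA damage genes 6 of 12 were higher and 3 lower, with the killer gene rpr lower (-1.98) and the damage kinase genes tefu (1.33) and mei-41 (1.18) higher. piRNA genes were split 7 higher and 8 lower of 21, with the nuclease gene zuc higher (2.03). With library totals 9 were higher and 2 lower, and without control library 1, 5 were lower. The piRNA split of 7 and 8 is near the 34.6% higher and 39.1% lower of all 13393 genes.

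Short transcripts were lower and long ones higher. Over the 11756 protein-coding genes that reached the minimum in both controls, 35.3% were higher and 38.9% lower. Sorted by their longest annotated transcript into 5 equal classes, the median log2 fold change was -0.48 for transcripts up to 986 bases, then -0.17, 0.01 and 0.13, and 0.22 for those of 3550 bases and more. The share higher was 19.7%, 30.5%, 36.6%, 42.1% and 47.9% over the same classes, and the share lower 54.6%, 43.7%, 36.4%, 31.3% and 28.5%. With genes also divided into 3 levels of mean CPM, at the top level the shortest class had a median of -0.62 and the longest 0.27. At the middle level the order broke at the top, at 0.11 for the fourth class and 0.05 for the longest.

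Exon number, which goes with length, gave medians of -0.38 for genes of 1 exon and 0.19 for genes of 9 or more. The number of annotated 3' ends showed no such gradient, with medians of -0.03, -0.05 and -0.08 for genes of 1, 2 and 3 or more ends. Several lists differ in length in the same sense: the longest transcript had a median of 415 bases in the Mst list, 865 in the ribosomal and 787 in the respiratory list, but 3371 in the centriole list and 2699 in the meiotic list. The part of transcript length, or of RNA or library quality, in the list results was not tested.

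**Figure D5:**
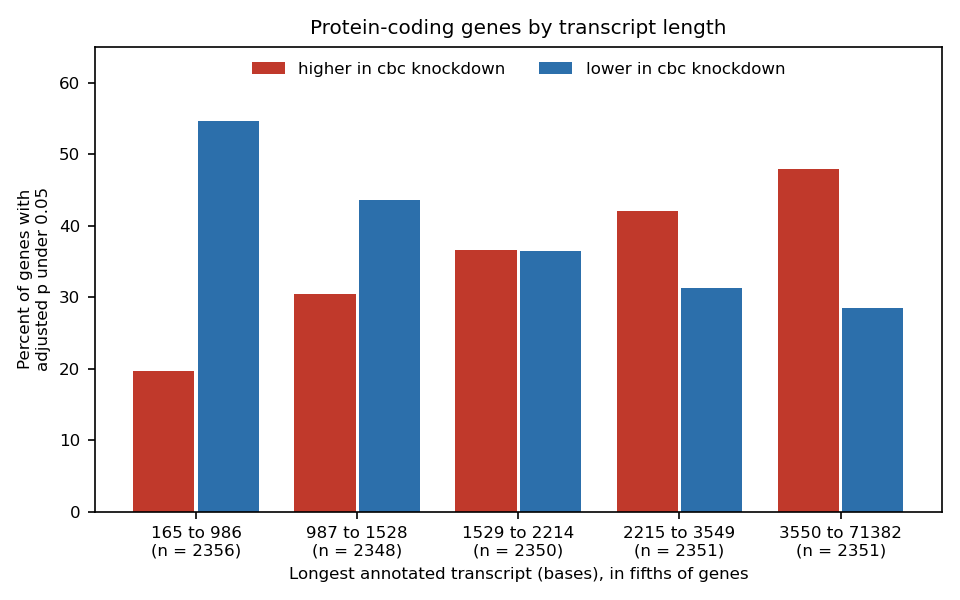
Percent of protein-coding genes higher (red) and lower (blue) in cbc knockdown, in 5 equal classes of the longest annotated transcript in bases. The share higher goes up from 19.7% to 47.9% and the share lower down from 54.6% to 28.5% along the axis.

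Some markers of the other cell types of the organ also moved. Of 11 muscle sheath genes 9 were lower and 2 higher, and their summed level was 970 and 941 CPM in cbc knockdown, against 1560 and 1544 CPM in control. Of 12 cyst and hub genes 5 were lower and 1 higher, at a summed 258 and 243 CPM in cbc knockdown, against 339 and 342 CPM in control. The share lower is near that of all 13393 genes, of which 39.1% were lower and 34.6% higher. The hub ligand gene upd1 stood at 2.55 and 3.48 CPM in cbc knockdown, against 17.6 and 17.7 CPM in control (-2.54 ± 0.15). Fas3, an adhesion protein of the hub, fell by 1.99 and hh by 1.61. In the same list zfh1 (-0.12) and eya (-0.06) were not called.

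Blood cell markers gave 3 lower and 1 higher of 6, at a summed 138 and 120 CPM in cbc knockdown, against 326 and 356 CPM in control. The fat body list summed to 277 and 290 CPM in cbc knockdown, against 316 and 323 CPM in control. Its members gave 6 higher and 1 lower of 9, with Lsp2 at 19.3 and 22.0 CPM in cbc knockdown, against 3.10 and 3.66 CPM in control. Accessory gland genes gave 7 higher and none lower of 14, but their summed level was 436 and 355 CPM in cbc knockdown, against 118 and 322 CPM in control, so the controls lay far apart. DESeq2 called 2 of them higher, and 13 were higher without control library 2, 4 without cbc knockdown library 1. Neuronal genes gave 10 higher and 5 lower of 20, and prt made up most of their summed level. Of 15 egg and eggshell genes 6 reached the minimum in both controls, and 3 of these were higher. Digestive genes gave 6 higher and 4 lower of 15, and that list also held Magi (0.97) and MagR (-0.80), which are no digestive enzyme genes. None of the muscle, cyst and hub, blood cell, fat body or accessory gland markers was without reads in all 4 libraries. The part of cell composition in the results was not tested.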

How the data were processed

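Whole-testis poly(A) RNA was sequenced with a directional kit, per the labels' protocols. The authors deposited counts of reads per gene, without normalization. Per the submitters' processing notes, the tools included STAR, Trim Galore, deepTools and SAMtools, with dm6 and BDGP6 as builds. Their versions are not given in the sources used here. The layout of the deposited count files is that of STAR's gene counter, and its sense column was used, with the opposite-strand column for antisense reads. The first rows, which name no gene, were left out of library sizes and tests. No poly(A) signal or other sequence was analysed.

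Genes reaching 10 counts in 2 or more of the 4 libraries were tested with edgeR 4.0.16 in R 4.3.3 (TMM, glmQLFit and glmQLFTest, two-sided, Benjamini-Hochberg, threshold 0.05), with 2 residual and 9.03 prior degrees of freedom and a common dispersion of 0.00685. Opposite-strand counts used the library sizes and TMM factors of the sense counts. Errors are SE of the fit. The chi-square of counts between libraries of a group, per degree of freedom, was 7.98 in cbc knockdown and 53.5 in control, well above sampling noise. The floor of 3 counts equals 0.158 and 0.146 CPM before scaling in the cbc libraries, against 0.0394 and 0.0408 CPM in the controls. The fit was tested on simulated data. Symbols and positions came from an Ensembl BDGP6 annotation that held 17710 of the 17807 identifiers, which may not be the release that was counted on.

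Named genes followed a rule: cbc, the 10 largest rises and falls among called protein-coding genes averaging at least 100 CPM with separate groups, the 5 largest gains and losses in CPM, up to 4 members of each of 47 lists by absolute log2 fold change, the 5 largest opposite-strand rises and falls at 5 CPM or more, and the 6 largest rises at 5 CPM or more among low genes behind an abundant gene. One gene that this rule names is not reported here. A few further list members, and the head-to-head, same-strand upstream and finer distance classes, were chosen after values were seen. The members and lists were chosen with earlier results of these data known. In all, 11 list names matched no gene. Several lists hold genes outside their name, and those stated beside the counts may not be all of them. The histone list, which also held replacement variants, gave 1 higher and 3 lower of 6. Alternatives were other scalings and filters, DESeq2 1.42.0, unstranded counts, all 3 genotypes in 1 fit, a replicate block and leaving out each library.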

Additional observations from a re-analysis of the deposited data

How the results depend on the processing

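Counts of called genes over the whole table stayed within 1.5 times under the scalings, filters, tools and strand settings run, except that DESeq2 called 942 opposite-strand falls in place of 1441. With library totals the balance of rises and falls turned, as given above. Of the counts of list members, 64 moved by over 1.5 times and 1064 did not, and 25 of the 64 were with library totals. With a filter of 0.5 CPM in 2 libraries, 90.0% of low genes overlapping or up to 1000 bases behind an abundant gene were higher in place of 72.3%, and with only genes that reach the count minimum in both controls, a choice made after seeing the data, 68.4% were. The filter of 0.5 CPM keeps few genes that are low in control unless they are high in cbc knockdown. Leaving out 1 library at a time gave between 4672 and 4881 genes higher and between 4685 and 5093 lower. The labels share only a replicate number between the groups, and same-numbered libraries did not deviate together (correlation -0.04), so the numbers do not pair the samples. With the replicate number as a block, 5046 genes were higher and 5189 lower.

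Genes near 0 changed sign: CstF50, at -0.05, was 0.186 with library totals and between -0.105 and 0.0147 with 1 library left out. Cpsf6, at 0.04, was 0.28 and called with library totals, -0.0253 with no filter, -0.0488 with unstranded counts and between -0.00890 and 0.107 with 1 library left out. The cause was not tested. The planned classes by poly(A) signal were not run, since they need a genome sequence. The shallower cbc libraries limit falls of low genes, and a group of 2 libraries leaves the accessory gland and mitochondrial-genome results resting on controls that differ.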
